A study of Bos taurus with 90 samples.

Results

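ASIP (ENSBTAG00000034077) encodes agouti signalling protein, and its level was described here in each of 90 bovine liver libraries. It is 1 of 24616 genes in the counts. ASIP was chosen by its own pattern in these libraries: it was above 1 CPM (counts per 1000000 counted reads) in 8 libraries and at or below 1 CPM in the other 82. Because the level chose the gene, its levels by breed, diet and residual feed intake (RFI) group are a description and carry no test.

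Agouti signalling protein is a secreted antagonist of melanocortin receptors. In skin it is released close to pigment cells, where it blocks the melanocortin 1 receptor and shifts pigment synthesis from dark to yellow or red. It is related to agouti-related protein, which acts on the melanocortin receptors of the brain that control appetite. In some yellow mutant mice the gene is placed under the promoter of a neighbouring gene, is expressed in nearly every tissue, and the mice become yellow and obese. In Normande cattle a transposable element upstream of the gene has been linked to its expression in many tissues. In the RefSeq gene table for assembly ARS-UCD2.0 the protein-coding genes RALY and EIF2S2 precede ASIP, and AHCY and ITCH follow it. The counts themselves were made on the older build UMD3.1, so no positions are given.

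The libraries came from liver biopsies of Charolais (CH) and Holstein-Friesian (HF) steers that ranked low or high for RFI within their breed and phase, with low RFI marking the feed-efficient steers. Steers received a barley-based high-concentrate diet with restricted grass silage (H1), then zero-grazed grass (ZG), then the high-concentrate diet again in the finishing phase (H2). Between H1 and ZG they were fed grass silage, and between ZG and H2 they grazed grass, and no biopsies were taken then. Diet, earlier feeding and age therefore cannot be told apart. In CH there were 9 low RFI and 11 high RFI libraries under H1, 3 and 3 under ZG, and 9 and 8 under H2, and in HF there were 7 low RFI and 9 high RFI libraries under H1, 10 and 8 under ZG, and 5 and 8 under H2. The libraries carried 73 steer numbers, since some steers were sampled in more than 1 phase, and each library within a group came from a different steer.

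Reads counted on genes ranged from 9097695 to 63621304 per library, with a median of 18858293. CPM values below were scaled by edgeR's TMM factors. Names were available for 352 identifiers only, and none of the 12 hepatocyte markers was among them. FGG, a fibrinogen chain made by hepatocytes and chosen after its values were seen, was between 5825 and 40064 CPM in every library. Steer number 1797 is labelled CH under H1 and HF under H2. Each library was scored on the 100 genes that differed most between breeds in the libraries of all other steer numbers, leaving out ASIP, with scores above 0 on the CH side. By this score 80 of 90 libraries lay on the side of their labelled breed and 10 did not, 6 labelled CH and 4 labelled HF.

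In the 8 libraries above 1 CPM, ASIP ranged from 4.54 to 17.4 CPM with a median of 9.59 CPM. Steer 860 (CH, H2, high RFI) was highest, with 194 reads in a library of 12599480, which is 17.4 CPM (95% exact Poisson interval 15.1 to 20.1). Steer 357 (CH, ZG, low RFI) followed with 333 reads and 12.04 CPM, the most reads of any library. Both came from CH steers of different diets and RFI groups.

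Steers 1840 and 419, both CH under H2 with high RFI, had 244 reads (11.5 CPM) and 205 reads (10.3 CPM). Steers 950 and 579, both CH under H1 with low RFI, had 112 reads (8.94 CPM) and 223 reads (6.98 CPM). The Poisson intervals of steers 357, 1840 and 419 overlapped, so the order among these 3 could not be read at this depth. These intervals cover counting error only, since the reads carried no molecular identifiers.

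The lowest of the 8 were steer 359 (CH, H2, high RFI), with 74 reads and 4.64 CPM (3.64 to 5.82), and the library labelled steer 2094 (HF, ZG, low RFI), with 92 reads and 4.54 CPM (3.66 to 5.57). Their intervals overlapped. Within the 8 libraries the highest level was 3.84 times the lowest.

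Just below the threshold, steer 2101 (HF, H2, high RFI) had 6 reads and 0.384 CPM (0.141 to 0.836). Next came steer 1492 (CH, H2, low RFI) with 3 reads and 0.218 CPM. The lowest library above 1 CPM was 11.8 times the highest library below it, a step of 3.26 on the scale of log2(CPM + 0.1), and no library lay between them. In bulk tissue, fewer cells expressing a gene and less of its RNA per cell cannot be told apart.

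**Figure D1:**
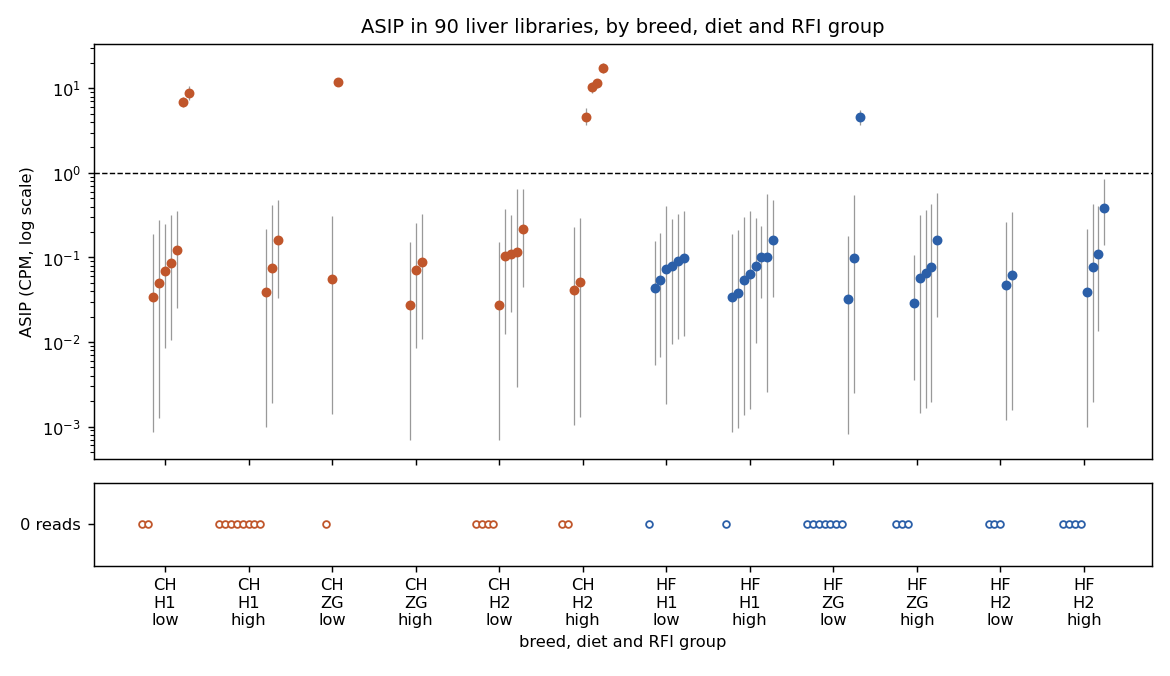
ASIP in CPM (log scale) in each library, by breed (CH orange, HF blue), diet and RFI group; bars are 95% exact Poisson intervals, the dashed line is 1 CPM, and libraries without an ASIP read are open points in the lower panel. The 8 libraries above the line lie between 4.54 and 17.4 CPM and the highest library below it is at 0.384 CPM.

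Of the 1556 ASIP reads in the series, 1477 (94.9%) lay in the 8 libraries and 79 in the other 82. Among those 82, 36 libraries had 0 reads, 25 had 1 read, 14 had 2 reads, 5 had 3 reads, and 1 each had 5 and 6 reads. A library with 0 reads allows up to 3 reads, which was between 0.085 and 0.355 CPM depending on depth, so ASIP was not detectable there at this depth rather than shown to be absent. The upper end of the two-sided 95% Poisson interval used for the other libraries is wider for 0 reads, at 3.69 reads or 0.105 to 0.436 CPM. Pooled over the 82 libraries, ASIP had 0.0471 CPM without TMM scaling.

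Depth did not sort the libraries. The 8 libraries above 1 CPM held between 10389341 and 28540901 reads, inside the range of the 82. The deepest library of the series, with 63621304 reads, had 2 ASIP reads. Steer 950 was above 1 CPM although its library ranked 87 of 90 from the deepest.

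**Figure D2:**
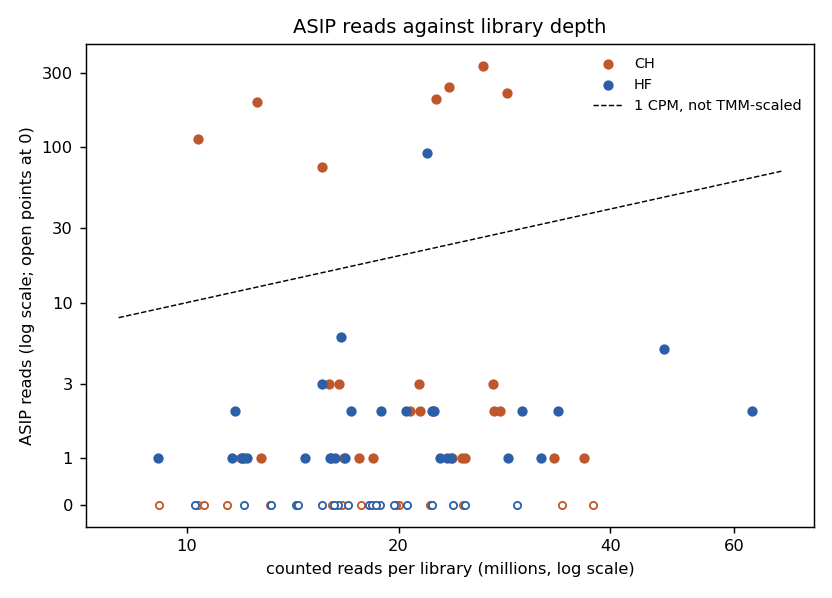
ASIP reads per library (log scale, libraries at 0 drawn as open points) against the reads counted per library (log scale), CH orange and HF blue; the dashed line marks 1 CPM without TMM scaling. The 8 libraries above the line hold 74 to 333 ASIP reads and the others at most 6.

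The residual reads were spread over both breeds. Below 1 CPM the pooled level without TMM scaling was 0.0428 CPM in 36 CH libraries and 0.0505 in 46 HF libraries. Among the diets it was 0.0575 for H1, 0.0309 for ZG and 0.0483 for H2. The highest pooled level of a breed and diet was that of HF under H1, at 0.076 CPM with at least 1 read in 14 of 16 libraries, and the lowest was that of HF under ZG, at 0.0247. These levels rest on 26 and 9 reads.

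By labelled breed, 7 of 43 CH libraries (16.3%) and 1 of 47 HF libraries (2.13%) were above 1 CPM. The median CH library was at 0.041 CPM and the median HF library at 0.0387 CPM, so the typical library of either breed had 1 read. The CH mean of 1.71 ± 4.12 CPM (SD, n = 43) rested on its 7 high libraries. The 43 CH libraries came from 36 steers and the 47 HF libraries from 38, so the shares and means count some steers more than once, and each steer counted more than once with one breed label was at or below 1 CPM throughout.

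The single HF library above 1 CPM stood apart in its other genes. The library labelled 2094 had a breed score of 1.51, the highest of all 47 HF libraries, where the HF median was -0.82 and the CH median 0.83. With 50 or 500 genes in place of 100 it was again the highest HF score, at 0.90 and 2.00. In the same ZG phase the library labelled CH 437 (high RFI) had the lowest score of all 90, at -2.02, and ASIP at or below 1 CPM. The library labelled HF 5612 under ZG also lay on the CH side, at 0.80 and with 0 ASIP reads, while the H2 library of that number was at -0.72. The other HF libraries on the CH side, 5624 (0.55) and 5608 (0.05) under H1, had 0 reads and 1 read of ASIP.

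Among the 7 CH libraries above 1 CPM, scores ran from -0.50 in steer 419 to 1.77 in steer 359, and 6 of the 7 were on the CH side. Steer 419 was on the CH side with 50 genes, at 0.40, and on the HF side with 500 genes, at -0.73. Without the 10 libraries scored on the other side, 6 of 37 CH libraries (16.2%) and 0 of 43 HF libraries were above 1 CPM. This exclusion was chosen after the data were seen, and it removes the library labelled 2094, the only high HF library. The 0 for HF thus follows from the choice and does not show that the high state is confined to CH. Whether any label was exchanged was not tested.

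**Figure D3:**
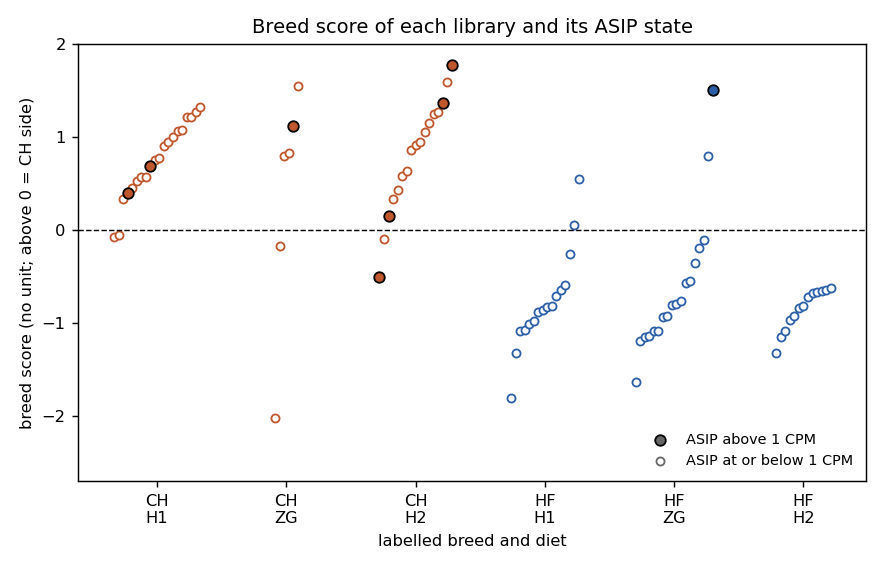
Breed score of each library (no unit, above 0 is the CH side) by labelled breed and diet; filled points are the 8 libraries with ASIP above 1 CPM and open points the other 82. The filled HF point under ZG is the library labelled 2094, at 1.51, and the lowest CH point under ZG is the library labelled 437, at -2.02.

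By diet, ASIP was above 1 CPM in 2 of 36 H1 libraries (5.56%), in 2 of 24 ZG libraries (8.33%) and in 4 of 30 H2 libraries (13.3%). None of these 8 steers had a library in another phase, so the diets were compared over different steers. Each diet had at least 1 CH library above 1 CPM, and the H1 and H2 libraries labelled HF had none, the highest being 0.163 CPM and 0.384 CPM.

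By RFI group over all libraries, 4 of 43 low RFI libraries (9.3%) and 4 of 47 high RFI libraries (8.51%) were above 1 CPM. Low RFI libraries averaged 0.795 ± 2.52 CPM (SD, n = 43), and high RFI libraries averaged 0.979 ± 3.36 CPM (SD, n = 47). Over the whole series the RFI groups held equal numbers of high libraries.

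Only CH under H1 and CH under H2 had more than 1 high library. For CH under H2 all 4 were in the high RFI group (4 of 8 against 0 of 9 low RFI), where the group mean was 5.49 ± 6.78 CPM (SD, n = 8) with a median of 2.34 CPM, against 0.0638 ± 0.0773 CPM (SD, n = 9). For CH under H1 both were in the low RFI group (2 of 9 against 0 of 11 high RFI), with means of 1.81 ± 3.52 CPM (SD, n = 9) and 0.0251 ± 0.0516 CPM (SD, n = 11). The RFI side of the high libraries was thus opposite in H1 and H2.

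For CH under ZG, 1 of 3 low RFI libraries and 0 of 3 high RFI libraries were above 1 CPM. For HF under ZG it was 1 of 10 low RFI libraries, the library labelled 2094, and 0 of 8 high RFI libraries. In every group with a high library the SD was larger than the mean, and in CH H1 low RFI the median was 0.0692 CPM, within the range of the group medians without a high library (0 to 0.0731 CPM). ASIP did not pass edgeR's filter on low counts in any of the 6 comparisons of low with high RFI within a breed and diet. The paper, comparing RFI groups with DESeq2, reported ASIP as downregulated in CH steers under H2. It cited earlier links of the gene to increased lipid synthesis. Its contrast is the CH H2 one described above, where every library above 1 CPM was in the high RFI group.

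Whether a steer kept its ASIP state between phases could be described for the low state only. Numbers that occurred in more than 1 phase with one breed label belonged to 14 steers, 6 CH and 8 HF, with 30 libraries, and 2 of these steers had a library in all 3 phases. All 14 were at or below 1 CPM in every library, with 0 to 6 reads and at most 0.384 CPM. Since 82 of all 90 libraries were in that state, repeated low libraries say little about whether a steer keeps its state. Of the 14 steers, 6 changed RFI group between phases and their ASIP level stayed below 1 CPM in both groups.

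None of the 8 steers above 1 CPM had another library, so that state could not be followed over time. Steer 307 (CH) had 3 reads under H1, 2 under ZG and 1 under H2. Steer 5632 (HF) had 2 reads, 0 reads and 1 read in the same order. Steer 2101 (HF, high RFI in both phases) had 5 reads under H1, in a deep library of 47640205 reads (0.102 CPM), and 6 reads under H2 (0.384 CPM), the only libraries below 1 CPM with more than 3 reads. Its Poisson intervals for the phases, 0.033 to 0.237 CPM and 0.141 to 0.836 CPM, overlapped. Number 1797 had 2 reads in its CH library (0.087 CPM) and 0 reads in its HF library, and these libraries scored 1.07 and -0.82, each on its labelled side.

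**Figure D4:**
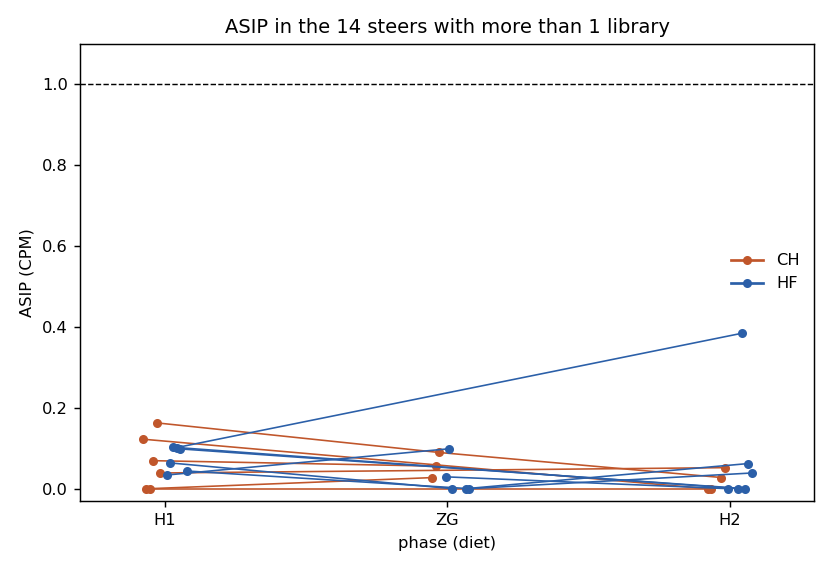
ASIP in CPM by phase for the 14 steers with libraries in more than 1 phase (CH orange, HF blue; a line joins the libraries of 1 steer); the dashed line is 1 CPM. Every point lies at or below 0.384 CPM, the H2 library of steer 2101.

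The same steers were used to see whether repeated numbers kept the state of other genes with separated levels. For each gene with at least 5 libraries above 1 CPM and at least 5 libraries with at most 3 reads, the widest step between neighbouring libraries was taken on the log2(CPM + 0.1) scale, with at least 5 libraries on each side. Over the 855 genes that qualified, the median widest step was 0.28. ASIP, with 3.26, ranked 5 of 855, and 10 genes had a step of 2 or more. ASIP was chosen for this pattern and qualified through its high libraries, so its rank describes that choice and carries no test.

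C1R, which encodes a protease that starts the classical complement cascade, ranked 3 with a step of 3.50. It also had 8 libraries above its step, 3 CH and 5 HF, but none of them was among the 8 of ASIP. The highest step was that of ENSBTAG00000002705, 3.64, with 28 libraries above it (16 CH and 12 HF), 3 of them shared with ASIP.

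Over the 9 other genes with a step of 2 or more there were 49 cases of a repeated steer with a library above the step, and in 45 of them all libraries of the steer were above it. Of these 45 cases, 34 came from 3 genes that were above their step in 59 to 77 of the 90 libraries. The 4 genes as rarely high as ASIP, above their step in 6 to 8 libraries, gave 5 such cases, and in 3 of them all libraries of the steer were above the step. For 5 of the 9 genes every one of the 14 steers had a single state. Of the 4 cases that did not hold, 2 were in HF steer 5612, whose ZG library lay on the CH side of the breed score. Among the rarely high genes, C1R held in 2 of 2 repeated steers, while ENSBTAG00000015274 and ENSBTAG00000014234 each held in 0 of 1. These genes describe the steers and give no value for the high state of ASIP.

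**Figure D5:**
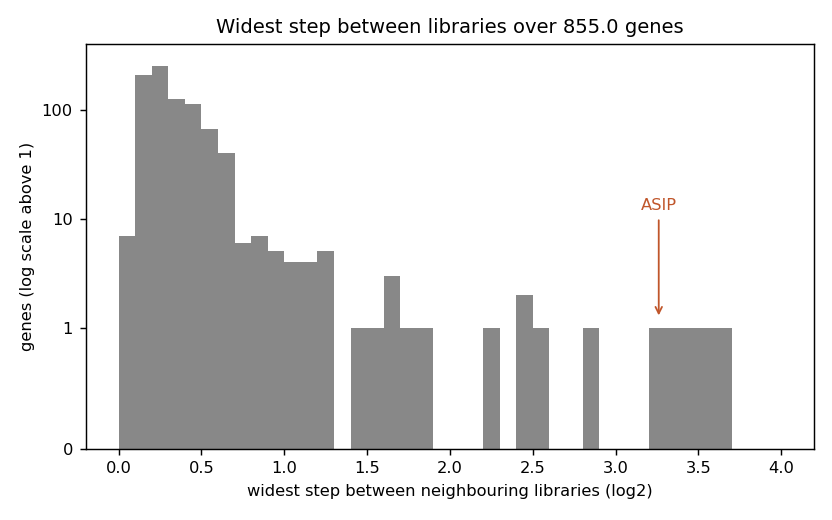
Number of genes (log scale above 1) by their widest step between neighbouring libraries in log2(CPM + 0.1), over 855 genes with both high and near-zero libraries. Most genes have steps below 1, and ASIP is marked at 3.26.

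No other gene followed ASIP closely over the 90 libraries. Among 12902 genes at 1 CPM or more in at least 5 libraries, the highest Pearson r with ASIP on log2(CPM + 0.1) was 0.42, for ENSBTAG00000014829, and its Spearman rho was 0.11. The second was ENSBTAG00000004939, with r = 0.41 and rho = 0.00, and the fifth had r = 0.35. None of the 5 highest had a name in the sources used here. The points share depth and RNA quality, r rests on the 8 high libraries, and correlations of this size are no finding.

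ENSBTAG00000014829 itself lay between 0.378 and 2.05 CPM in the 8 libraries and between 0 and 1.26 CPM in the 82, so the ranges overlapped. None of the 12902 genes was higher in all 8 libraries than in all 82, and none was lower. ASIP was the one gene that separated these libraries, which is the rule by which they were parted.

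AHCY, the gene for S-adenosylhomocysteine hydrolase and the neighbour that follows ASIP, did not move with it. AHCY (ENSBTAG00000018101) was between 1428 and 2853 CPM in the 8 libraries and between 1178 and 4721 CPM in the 82, and its ranks in the 8 libraries ran from 3 to 88 of 90. Its r with ASIP was 0.00 and its rho -0.05. ASIP reached at most 17.4 CPM, so a change of that size in AHCY could not be seen within this spread. RALY, EIF2S2 and ITCH had no matched identifier and are not analysed here.

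Markers of other tissues that a biopsy could carry were mostly without a matched identifier, since names came only from genes the paper reported for RFI. Of the 8 adipocyte markers only CIDEC, a lipid droplet protein, was matched, and none of the skin, skeletal muscle or leukocyte markers was. CIDEC was between 0 and 1.75 CPM in the 8 libraries and between 0 and 30.5 CPM in the 82. Its r with ASIP was -0.27 and its rho -0.10, and its ranks in the 8 libraries ran from 21 to 88. FGG was between 8306 and 31412 CPM in the 8, inside its range over the 82. The part of other cell types in the 8 libraries was not tested beyond these genes. Reads of an overlapping or antisense transcript could not be told apart from those of ASIP, since the strand setting of the counts is not given in the sources used here.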

How the data were processed

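The authors sequenced liver RNA of the CH and HF steers (single-end reads of 50 bp), trimmed the reads and aligned them with STAR (version 2.5.3a in the submitters' processing notes) to UMD3.1. The authors deposited raw read counts per Ensembl gene, without normalization, so alignment and counting could not be varied and reads of near-identical copies are not separable. Counts of 24616 genes in 90 libraries (9097695 to 63621304 reads) were scaled to CPM with TMM in edgeR 4.0.16 (R 4.3.3). The rest was done in Python 3.11.15 (pandas 2.3.3, numpy 2.4.6, scipy 1.17.1; figures with matplotlib 3.10.9). Groups came from the labels, and steers from the numbers in the titles. ASIP and all lists were chosen with earlier results of these data known.

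Named genes were ASIP, the 5 genes with the highest r with ASIP, its neighbours in the RefSeq table and any listed gene with a matched identifier. FGG and the genes with the widest steps were named after their values were seen. As a check of the steer numbers, pairs of libraries were correlated after subtraction of group means. This used the 855 genes with both high and near-zero libraries, without ASIP (854 genes). The 18 pairs with the same number had a median r of 0.36, against -0.01 for 1274 other pairs of the same breed and different diets. Each library of a pair was also compared with all libraries of its breed in the other library's diet. The same number was the best match in 26 of 36 such comparisons. For number 1797, labelled with both breeds, r was 0.07. The lowest pairs were HF 1639 (-0.13) and HF 5612 (-0.08).

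Planned edgeR tests of melanocortin and lipid synthesis genes were left out, since 0 of 27 and 2 of 24 of them could be matched to an identifier, fewer than the 80% required. Of 20 RefSeq neighbours, 1 was matched.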

Additional observations from a re-analysis of the deposited data

Results flagged for a closer look

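In 9 groups of 4 to 10 steers, the gap of the highest or lowest ASIP value to its nearest neighbour was set against Dixon's 95% critical value, and 2 values passed it. Chance flags about 1 in 20 groups when values are normally distributed and not chosen beforehand. That share does not apply here, since ASIP was chosen by its high libraries and many libraries had no ASIP read. The gaps are given as a description. The measure marks a lone high library, and the groups with 2 and 4 high libraries did not pass it. CH ZG low RFI also had a lone high library (steer 357, 12.04 CPM), but with 3 libraries it was too small to be included. In HF ZG low RFI, the library labelled 2094 had 4.54 CPM and the next library 0.0987 CPM, a gap of 0.978 of the group's range against a critical value of 0.466 (n = 10). This is 1 of the 8 libraries that the choice of the gene rests on, and the one with the highest breed score of the 47 HF libraries. In HF H2 high RFI, steer 2101 had 0.384 CPM and the next library 0.111 CPM, a gap of 0.71 of the range against 0.526 (n = 8). That value rests on 6 reads.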

How the results depend on the processing

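The count of 8 libraries above 1 CPM was the same with a threshold of 0.5 or 2 CPM, with plain library size, with DESeq2 size factors (DESeq2 1.42.0), with at least 10 reads as the rule, without libraries under 10000000 reads and without number 1797. It was 7 without the CH ZG low RFI library of steer 357, and 6 without the 10 libraries scored on the other breed's side, an alternative chosen after seeing the data. The 14 repeated steers with a single state were 13 without libraries under 10000000 reads and, chosen after seeing the data, 12 without numbers 1639 and 5612. The rank of ASIP by widest step stayed at 5 with a pseudocount of 1 and with plain library size, and ran from 5 to 6 with each of 11 libraries of small groups left out in turn. It was not computed under the other settings. The genes most like ASIP were not stable: of the 5, 0 were shared with Spearman's rho, 3 with a pseudocount of 1 and 2 with deviations from group means, where the highest values were rho = 0.37, r = 0.52 and r = 0.39. No paired test of ASIP was run, since the gene was chosen by its levels and its results come from no test. The 14 repeated steers were described instead, and the gene list tests, with or without the steer as a block, were not run for want of matched identifiers. Below about 0.355 CPM, depth limits what a library without reads can show.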
